A study of Mus musculus with 20 samples.

Results

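Store-operated calcium entry and its partner genes were described here in the mouse microglial line BV-2. The genes are the endoplasmic reticulum (ER) calcium sensors Stim1 and Stim2, the pore subunits Orai1, Orai2 and Orai3, the inositol trisphosphate (IP3) receptors Itpr1 and Itpr2, the potassium channel Kcnn4 and the ER calcium pumps Atp2a2 and Atp2a3. They were chosen by name, as the rows of the deposited counts table whose Ensembl identifiers carry these mouse symbols, which gave 10 of 56941 rows. All 10 passed the filter on low counts and were tested among 13755 genes. In GENCODE release 21 (GRCm38) all are protein-coding, with Orai1, Orai2, Stim2 and Atp2a2 on chromosome 5, Itpr1 and Itpr2 on chromosome 6, Stim1, Orai3 and Kcnn4 on chromosome 7 and Atp2a3 on chromosome 11. Genes annotated across them, on either strand, held at most 42 reads in any library. BV-2 is an immortalized line derived from mouse microglia. The 4 groups were RGS10 knockout BV-2 cells with interferon gamma (IFNγ, 10 ng/mL), RGS10 knockout cells in medium as vehicle, wild-type BV-2 cells with the same dose of IFNγ, and wild-type cells in vehicle, all sampled at 48 h. Each group had 5 libraries of poly(A)-selected RNA, with replicates 1 to 3 in batch 1, replicate 4 in batch 2 and replicate 5 in batch 3. The labels do not give the number of knockout clones. They call the replicates biological without giving separate cultures, so each p-value reflects only how far these libraries spread, which may be technical.

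In store-operated entry, a receptor that activates phospholipase C produces IP3, and IP3 receptors release calcium from the ER. STIM proteins sense the fall of calcium in the ER lumen, move to junctions with the plasma membrane and open channels built of ORAI subunits. SERCA pumps refill the store, and calcium-activated potassium channels such as KCa3.1 keep the membrane negative and so maintain the driving force for calcium. In microglia this entry follows stimulation of P2Y receptors and is known to bear on migration, phagocytosis and cytokine release.

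The libraries held 15866749 to 29157740 counts. Rgs10, the targeted gene, was read in every library and averaged 24.4 ± 14.7 CPM in knockout cells with IFNγ, 28.2 ± 4.56 CPM in knockout cells with vehicle, 29.6 ± 11.7 CPM in wild-type cells with IFNγ and 63.0 ± 6.62 CPM in wild-type cells with vehicle (CPM, the count scaled to library size after TMM normalization; SD, n = 5). It was lower in knockout than in wild-type cells under vehicle (log2 change −1.17 ± 0.17 SE, edgeR quasi-likelihood test, Benjamini-Hochberg adjusted p = 3.2e-05), but not detectably so under IFNγ (−0.33 ± 0.17, edgeR adjusted p = 0.13). Under IFNγ it passed in batch 1 alone (−0.28 log2, edgeR adjusted p = 0.0076) and without batch 2 (−0.44 log2, edgeR adjusted p = 0.0083). By batch the difference under IFNγ was −0.31, 0.02 and −0.88 log2, so in batch 2 the library labelled knockout, at 50.5 CPM, was not below the wild-type one. With IFNγ, Rgs10 fell in wild-type cells (−1.17 ± 0.17 log2, edgeR adjusted p = 1.0e-05) but did not pass in knockout cells (−0.33 ± 0.17 log2, edgeR adjusted p = 0.12). These responses differed by 0.84 ± 0.24 log2 (edgeR adjusted p = 0.044), a call lost in 15 of the 20 fits that left 1 library out. A gene-level count cannot tell which stretch of the transcript was read. The 4 IFNγ libraries of batches 2 and 3 stood apart, with TMM factors of 0.892 and 0.879 in knockout cells and 0.635 and 0.764 in wild-type cells, against 1.01 to 1.12 in the other 16 libraries. In the same 4 libraries the nuclear RNA Malat1 stood at 955.3 to 1514 CPM on plain totals, against 51.4 to 385.7 CPM in the others. All 13 microglia and macrophage markers passed the filter and summed to 2568 to 6969 CPM per library, but single markers differed by group. Among homeostatic markers, Tmem119 and P2ry12 averaged 1.61 to 15.6 CPM per group. Cx3cr1 averaged 2.90, 70.7, 1.03 and 86.1 CPM in knockout IFNγ, knockout vehicle, wild-type IFNγ and wild-type vehicle cells. Aif1 averaged 55.2, 3.36, 121 and 23.9 CPM in the same groups. Lists of astrocyte, neuron, oligodendrocyte, T cell, B cell and fibroblast markers summed to between 0 and 24.9 CPM. The endothelial list summed to 32.7 to 365 CPM in knockout libraries and 25.2 to 59.1 CPM in wild-type ones. Kdr averaged 156, 319, 41.0 and 31.2 CPM and Pecam1 3.72, 0.122, 5.52 and 0.641 CPM in knockout IFNγ, knockout vehicle, wild-type IFNγ and wild-type vehicle cells, while Cldn5 had no read in 3 groups and averaged 0.00775 CPM in wild-type cells with IFNγ. In bulk RNA, fewer cells expressing a gene and less RNA per cell cannot be told apart.

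Kcnn4 gave the steadiest pattern among the 10 genes: it was higher with IFNγ in both lines and lower in knockout than in wild-type cells under both treatments, each time by more than 2-fold. Orai1 was higher with IFNγ in both lines, and Orai2 was lower. Orai3 was lower with IFNγ in wild-type cells, and its level with IFNγ was higher in knockout than in wild-type cells. Stim1 was higher in knockout than in wild-type cells under both treatments, while Stim2 passed no test. Itpr2 was lower in knockout cells throughout, and both SERCA genes were lower with IFNγ. No gene of the 10 passed the test of whether the IFNγ response itself differed between the lines, a test that called 6.50% of all genes.

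**Figure D1:**
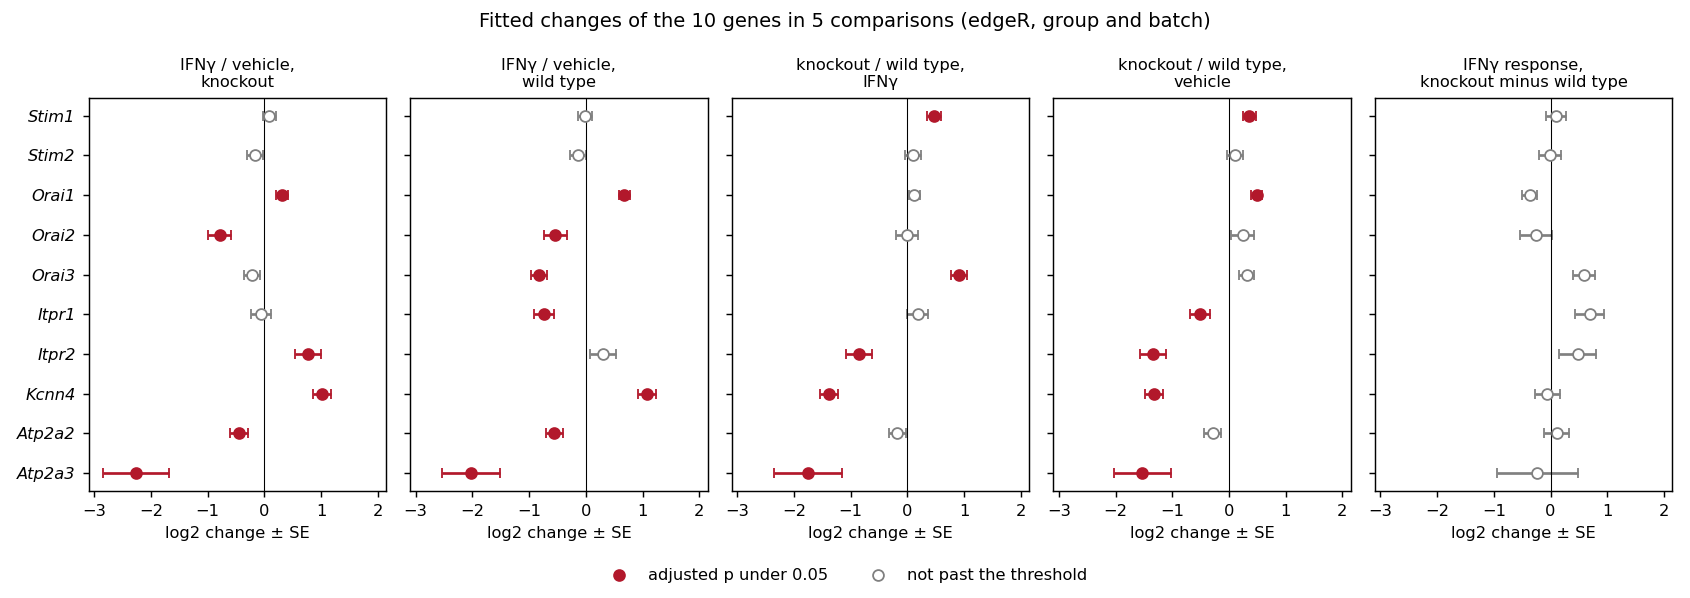
Fitted log2 change (x axis, ± SE) of the 10 genes (rows) in each of the 5 comparisons (panels), from edgeR with group and batch as terms. Filled points have a Benjamini-Hochberg adjusted p under 0.05, as Kcnn4 does in the 4 pairwise panels and no gene does in the panel on the difference of responses.

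STIM1 is the main ER sensor that opens ORAI channels, and STIM2 senses smaller losses of ER calcium. Stim1 stood at 91.4, 94.7, 82.4, 80.7 and 95.1 CPM in replicates 1 to 5 of the knockout IFNγ group and at 73.9, 85.5, 80.1, 90.5 and 88.5 CPM in the knockout vehicle group. The wild-type IFNγ group had 60.2, 59.0, 61.0, 92.0 and 53.2 CPM and the wild-type vehicle group 54.8, 59.9, 62.5, 68.1 and 80.8 CPM. Both knockout groups lay above most wild-type libraries, but each pair overlapped, under IFNγ because wild-type replicate 4 reached 92.0 CPM. Stim1 was higher in knockout than in wild-type cells with IFNγ, by 0.47 ± 0.12 log2 (1.38-fold, edgeR adjusted p = 0.0056), and with vehicle, by 0.36 ± 0.12 log2 (1.29-fold, edgeR adjusted p = 0.035). By batch the difference was 0.57, −0.19 and 0.84 log2 with IFNγ and 0.43, 0.41 and 0.13 log2 with vehicle, in batches 1, 2 and 3. The vehicle call was lost in 14 of 30 alternative settings, RLE size factors and plain library totals among them. Leaving out replicate 1, 2, 3 or 4 of the wild-type vehicle group was among these 14. So was leaving out replicate 2, 3, 4 or 5 of the knockout vehicle group. Without any 1 of these libraries the difference was 0.32 to 0.38 log2. The IFNγ change of Stim1 was 0.09 ± 0.12 log2 in knockout cells (edgeR adjusted p = 0.56) and −0.01 ± 0.12 log2 in wild-type cells (edgeR adjusted p = 0.96).

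Stim2 averaged 41.7 ± 12.2 CPM in knockout cells with IFNγ, 45.6 ± 8.20 CPM in knockout cells with vehicle, 38.3 ± 6.12 CPM in wild-type cells with IFNγ and 41.7 ± 3.57 CPM in wild-type cells with vehicle (SD, n = 5). Its libraries overlapped in every pair of groups, and batch 2 gave the lowest value of 3 groups, at 20.5, 34.8 and 28.1 CPM in knockout IFNγ, knockout vehicle and wild-type IFNγ. None of its 5 fitted changes passed, and the 4 pairwise ones lay between −0.16 and 0.11 log2. The 95% interval of the IFNγ change ran from −0.46 to 0.15 log2 in knockout cells and from −0.45 to 0.16 log2 in wild-type cells. By group means, the order of the 2 sensors depended on the gene length used, except in knockout cells with IFNγ. Per kb of all annotated exons, Stim1 held 52.4%, 47.9%, 45.5% and 43.6% of the summed Stim1 and Stim2 level in knockout IFNγ, knockout vehicle, wild-type IFNγ and wild-type vehicle cells. In knockout cells with IFNγ the SD was 7.92%, and replicates 1 to 5 gave 51.2%, 50.7%, 46.2%, 66.0% and 47.7%. The order of the means there thus did not hold in every library, and the highest share was that of batch 2. Per kb of the longest transcript it held 71.2%, 67.5%, 65.1% and 63.7% in the same groups. The annotated exons of Stim1 add up to 10371 bp, but its longest transcript is 4362 bp, and the counts do not show which transcripts were present.

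ORAI1 is the pore subunit of the classical calcium release-activated channel, and ORAI2 and ORAI3 can join it in mixed channels. Promoter sequence is shown for Orai1 and Orai3, and with its values for Kcnn4, because these are the 3 genes whose IFNγ change in wild-type cells held in every alternative setting. The sequences are from RefSeq on GRCm38.p6, plus strand, and give the 250 bases before the annotated start, chr5:123014824-123015073 for Orai1 and chr7:127769565-127769814 for Orai3. Capitals mark a match to the gamma-activated site TTCNNNGAA in Orai1, and to the NFAT core GGAAA, read on either strand, in Orai3.
Orai1: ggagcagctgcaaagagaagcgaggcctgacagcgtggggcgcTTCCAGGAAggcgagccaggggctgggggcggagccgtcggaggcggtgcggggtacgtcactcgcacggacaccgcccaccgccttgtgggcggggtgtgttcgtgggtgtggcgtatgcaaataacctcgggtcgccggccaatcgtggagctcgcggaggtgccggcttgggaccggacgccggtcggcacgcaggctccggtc
Orai3: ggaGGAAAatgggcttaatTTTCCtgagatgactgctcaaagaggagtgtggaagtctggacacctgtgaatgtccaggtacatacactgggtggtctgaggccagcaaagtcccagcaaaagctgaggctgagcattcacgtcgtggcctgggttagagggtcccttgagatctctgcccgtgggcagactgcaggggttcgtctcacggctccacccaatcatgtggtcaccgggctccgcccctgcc
RefSeq promoters of 300 bases, 250 before and 50 after the start, were matched for 8 of the 10 genes, without an entry for Itpr1 and Atp2a2. Searched on both strands, TTCNNNGAA was found in 1 of these 8, at base 44 of the Orai1 window, and in 8.30% of all 32851 promoters in the table. GGAAA was found at bases 4 and 20 of the Orai3 window and once in that of Orai2, and in 61.3% of all promoters. The core of the interferon-stimulated response element, GAAA, any 2 bases and GAAA again, was found in none of the 8 and in 3.44% of all promoters. A match is a run of letters and not a measured site, and its absence says only that the letters are not in that window.

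Orai1 stood at 40.6, 37.1, 41.6, 30.3 and 43.2 CPM in replicates 1 to 5 of the knockout IFNγ group and at 30.9, 32.4, 33.7, 27.3 and 30.9 CPM in the knockout vehicle group. The wild-type libraries gave 35.7, 33.4, 38.3, 31.3 and 37.7 CPM with IFNγ and 23.6, 21.6, 24.8, 19.2 and 21.1 CPM with vehicle. The wild-type vehicle libraries were the lowest 5 of the 20 and overlapped with no other group. IFNγ raised Orai1 in knockout cells by 0.31 ± 0.10 log2 (1.24-fold, edgeR adjusted p = 0.014) and in wild-type cells by 0.68 ± 0.10 log2 (1.60-fold, edgeR adjusted p = 7.5e-06). The change was positive in all 3 batches of both lines, at 0.30, 0.15 and 0.48 log2 in knockout and 0.61, 0.70 and 0.84 log2 in wild-type cells. The call in knockout cells was lost in 4 of 30 settings. These were plain library totals, no filter beyond 1 read, no batch term, and batches 2 and 3 alone. Knockout cells held more Orai1 than wild-type cells under vehicle (0.49 ± 0.10 log2, 1.41-fold, edgeR adjusted p = 6.8e-04). Under IFNγ the difference was 0.12 ± 0.10 log2 and did not pass (edgeR adjusted p = 0.34). The response in knockout minus that in wild-type cells was −0.37 ± 0.14 log2, with −0.32, −0.55 and −0.35 in the 3 batches, and missed the threshold (edgeR adjusted p = 0.11), though DESeq2 and batch 1 alone passed it.

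Orai2 stood at 30.3, 29.9, 29.7, 18.8 and 20.7 CPM with IFNγ in knockout cells, against 44.8, 45.1, 44.4, 36.9 and 46.9 CPM with vehicle. Wild-type cells had 35.9, 35.4, 33.5, 8.11 and 22.8 CPM with IFNγ, against 41.7, 41.6, 38.9, 35.1 and 28.4 CPM with vehicle. All knockout IFNγ libraries lay below all knockout vehicle ones, whereas the wild-type groups overlapped and the lowest value, 8.11 CPM, was that of batch 2. Orai2 fell by 0.79 ± 0.20 log2 in knockout cells (1.73-fold lower, edgeR adjusted p = 0.0037) in every setting tried. In wild-type cells it fell by 0.54 ± 0.20 log2 (edgeR adjusted p = 0.029), with −0.22, −2.10 and −0.32 log2 in batches 1, 2 and 3. That call was lost without replicate 4 of the wild-type IFNγ group (−0.30 log2, edgeR adjusted p = 0.052) or of the wild-type vehicle group (−0.40 log2, edgeR adjusted p = 0.092), without batch 2 as a whole (−0.25 log2, edgeR adjusted p = 0.077), and with no batch term (−0.45 log2, edgeR adjusted p = 0.17). The wild-type IFNγ library of batch 2 was also the one with the lowest TMM factor, 0.635, and the highest Malat1, 1514 CPM. Their part in the change was not tested. Orai2 did not differ detectably between the lines, at −0.01 ± 0.20 log2 with IFNγ (edgeR adjusted p = 0.97) and 0.24 ± 0.20 log2 with vehicle (edgeR adjusted p = 0.40).

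Orai3 stood at 44.9, 43.5, 41.5, 20.7 and 27.9 CPM with IFNγ in knockout cells, against 38.7, 42.4, 42.2, 35.8 and 44.4 CPM with vehicle. Its wild-type values were 19.5, 18.2, 19.8, 15.4 and 20.5 CPM with IFNγ, against 33.2, 31.9, 37.0, 30.3 and 31.5 CPM with vehicle. The wild-type IFNγ libraries were the lowest 5 of the 20, just below the knockout IFNγ library of batch 2 at 20.7 CPM. Orai3 fell by 0.82 ± 0.14 log2 with IFNγ in wild-type cells (1.76-fold lower, edgeR adjusted p = 5.2e-05), with −0.82, −0.97 and −0.62 log2 in batches 1, 2 and 3. In knockout cells the change was −0.22 ± 0.14 log2 (edgeR adjusted p = 0.20), and the batches differed in sign, with 0.08, −0.79 and −0.67 log2. With IFNγ, knockout cells held 1.87-fold more Orai3 than wild-type cells (0.91 ± 0.14 log2, edgeR adjusted p = 4.0e-05), at 1.17, 0.42 and 0.44 log2 by batch. With vehicle the difference was 0.31 ± 0.14 log2 (edgeR adjusted p = 0.099). The response in knockout minus that in wild-type cells was 0.59 ± 0.20 log2, which missed the threshold (edgeR adjusted p = 0.075) and was 0.90, 0.18 and −0.05 log2 by batch. It passed without replicate 4 of the knockout IFNγ group (0.72 log2, edgeR adjusted p = 0.010), without its replicate 5 (0.70 log2, edgeR adjusted p = 0.024), in batch 1 alone (0.94 log2, edgeR adjusted p = 2.3e-08) and in DESeq2. These are the 2 knockout IFNγ libraries with TMM factors of 0.892 and 0.879 and Malat1 at 1446 and 1004 CPM, against 55.95 to 62.7 CPM in batch 1 of that group. Their part in the difference was not tested.

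Scaled to exon length, the makeup of the ORAI family moved with IFNγ. Orai1 held 45.3 ± 6.41% of the summed CPM per kb of the 3 genes in knockout cells with IFNγ, against 34.1 ± 1.17% with vehicle. In wild-type cells it held 54.2 ± 4.49% with IFNγ, against 31.0 ± 1.05% with vehicle (SD, n = 5 each). In both lines every IFNγ library had a larger Orai1 share than every vehicle library. By batch the Orai1 share was higher with IFNγ by 6.13, 16.6 and 21.3 points in knockout and 20.4, 31.9 and 23.1 points in wild-type cells. The Orai3 share was 43.4 ± 5.90% in knockout cells with IFNγ, against 47.9 ± 1.12% with vehicle, and 30.7 ± 1.55% in wild-type cells with IFNγ, against 49.4 ± 1.69% with vehicle. The wild-type groups did not overlap, and the share with IFNγ minus that with vehicle was −18.9, −17.5 and −19.3 points in batches 1, 2 and 3. In knockout cells the groups overlapped, and the same difference was 0.401, −11.0 and −12.5 points. Orai2 had the smallest share in each group, at 11.3%, 18.1%, 15.1% and 19.7% on average in knockout IFNγ, knockout vehicle, wild-type IFNγ and wild-type vehicle cells. With vehicle, Orai3 thus had the largest share in both lines, and with IFNγ Orai1 had the largest in wild-type cells, while in knockout cells with IFNγ the shares of Orai1 and Orai3 differed by less than their SD. Per kb of the longest transcript these last shares were further apart, 47.7 ± 6.28% for Orai1 and 37.4 ± 5.45% for Orai3. Orai1 thus had the larger mean under both lengths, but the gap depended on the length used. Per kb of exon the order also differed by batch. In batch 1 Orai3 had the larger share, at 48.0%, 49.1% and 45.7%, against 40.5%, 39.0% and 42.8% for Orai1. In the single libraries of batches 2 and 3 Orai1 had the larger share, at 50.8% and 53.4%, against 37.2% and 36.9% for Orai3. These are shares of mRNA and not of channel protein.

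**Figure D2:**
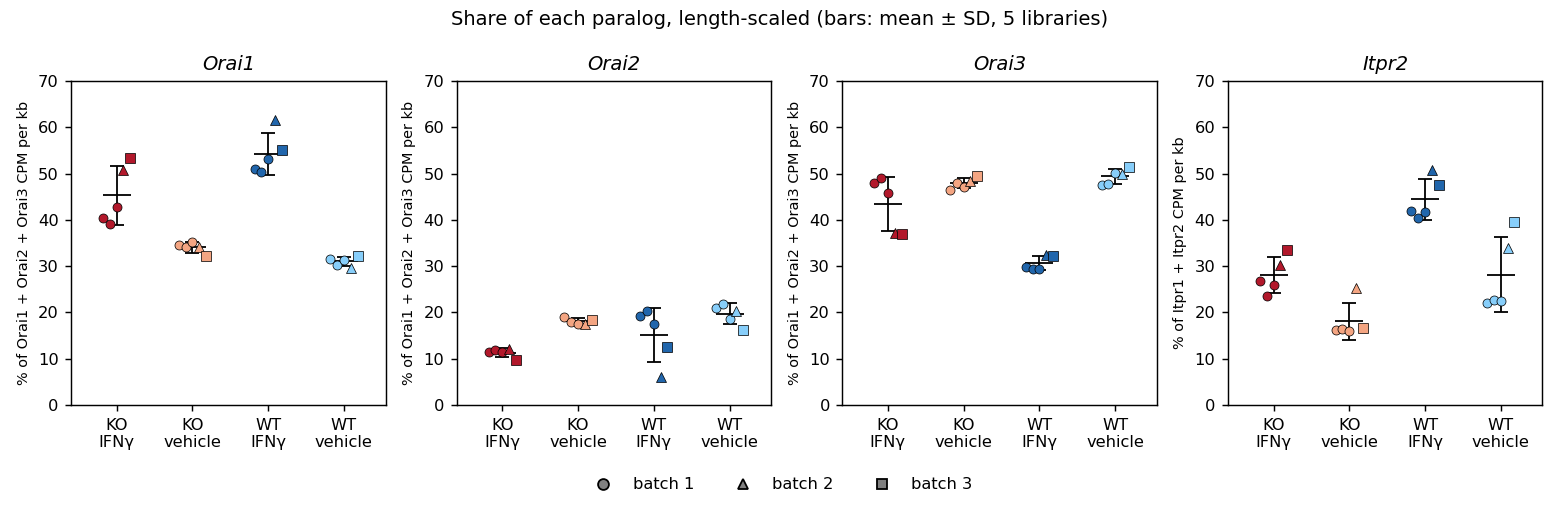
Share (y axis, percent of the summed CPM per kb of exon) of Orai1, Orai2 and Orai3 within the ORAI genes and of Itpr2 within Itpr1 and Itpr2, in each library. Symbols mark the batch and bars the mean ± SD of 5 libraries. In wild-type cells the Orai3 share was 30.7% with IFNγ and 49.4% with vehicle, and in knockout cells with IFNγ batch 1 lies above batches 2 and 3.

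IP3 receptors are the release channels of the ER. Itpr2 stood at 16.1, 15.9, 18.9, 16.3 and 22.6 CPM in the knockout IFNγ group and at 9.96, 10.8, 10.9, 12.1 and 8.53 CPM in the knockout vehicle group. The wild-type libraries gave 28.3, 23.5, 25.1, 66.0 and 28.5 CPM with IFNγ and 20.1, 23.6, 19.6, 26.0 and 48.0 CPM with vehicle. No knockout library reached the wild-type range of the same treatment, and the 2 high wild-type values came from different batches. Itpr2 was lower in knockout than in wild-type cells with IFNγ (−0.86 ± 0.23 log2, 1.82-fold lower, edgeR adjusted p = 0.0057) and with vehicle (−1.34 ± 0.23 log2, 2.53-fold lower, edgeR adjusted p = 2.2e-04). The batches gave −0.59, −2.01 and −0.33 log2 with IFNγ and −0.99, −1.10 and −2.48 log2 with vehicle. The IFNγ value was smaller without the wild-type IFNγ library of batch 2, at −0.56 log2, and still passed. IFNγ raised Itpr2 in knockout cells by 0.77 ± 0.23 log2 (1.71-fold, edgeR adjusted p = 0.011). In wild-type cells the change was 0.30 ± 0.23 log2 (edgeR adjusted p = 0.28), with 0.28, 1.34 and −0.75 log2 by batch. It passed at 0.55 log2 without replicate 5 of the wild-type vehicle group (edgeR adjusted p = 0.034) and was −0.01 log2 without replicate 4 of the wild-type IFNγ group (edgeR adjusted p = 0.96).

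Itpr1 stood at 54.7, 63.8, 66.7, 46.8 and 55.8 CPM with IFNγ in knockout cells, against 64.1, 68.1, 71.0, 44.4 and 52.6 CPM with vehicle. In wild-type cells it stood at 48.6, 43.0, 43.6, 79.1 and 38.9 CPM with IFNγ, against 88.3, 99.3, 84.2, 62.7 and 91.1 CPM with vehicle. In wild-type cells 4 IFNγ libraries lay below all vehicle ones, and the one that did not was that of batch 2. Itpr1 fell by 0.74 ± 0.18 log2 with IFNγ in wild-type cells (1.67-fold lower, edgeR adjusted p = 0.0016), by batch −1.0, 0.33 and −1.22 log2. In knockout cells the change was −0.06 ± 0.18 log2 (edgeR adjusted p = 0.83). Under vehicle, knockout cells held less Itpr1 than wild-type cells (−0.51 ± 0.18 log2, 1.42-fold lower, edgeR adjusted p = 0.040), with −0.42, −0.50 and −0.79 log2 by batch. That call lay near the threshold and was lost in 11 of 30 settings. It was lost, at −0.54 to −0.41 log2, when replicate 1, 2, 3 or 5 of the wild-type vehicle group or replicate 1, 2, 4 or 5 of the knockout vehicle group was left out. Under IFNγ the difference was 0.18 ± 0.18 log2 (edgeR adjusted p = 0.46), and 0.50 log2 without replicate 4 of the wild-type IFNγ group (edgeR adjusted p = 5.8e-04). The response in knockout minus that in wild-type cells was 0.69 ± 0.25 log2 (edgeR adjusted p = 0.11), at 0.87, −0.26 and 1.31 log2 by batch. Without the same library it was 1.00 log2 and passed (edgeR adjusted p = 1.7e-04). It also passed with plain library totals, with no filter beyond 1 read, in limma-voom, in batch 1 alone and without batch 2. Per kb of exon, Itpr2 made up 28.0 ± 3.87%, 18.1 ± 4.01%, 44.4 ± 4.52% and 28.1 ± 8.09% of the summed Itpr1 and Itpr2 level in knockout IFNγ, knockout vehicle, wild-type IFNγ and wild-type vehicle cells. Its share was higher with IFNγ in every batch of both lines, by 9.28, 4.97 and 16.7 points in knockout and 18.9, 16.9 and 8.04 points in wild-type cells.

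KCa3.1, the product of Kcnn4, is the intermediate-conductance calcium-activated potassium channel of microglia, opened by calcium through calmodulin. Its promoter on GRCm38.p6, chr7:24370013-24370262 on the plus strand, again from RefSeq and again as the 250 bases before the start, is shown without capitals because none of the 3 motifs was found in it.
Kcnn4: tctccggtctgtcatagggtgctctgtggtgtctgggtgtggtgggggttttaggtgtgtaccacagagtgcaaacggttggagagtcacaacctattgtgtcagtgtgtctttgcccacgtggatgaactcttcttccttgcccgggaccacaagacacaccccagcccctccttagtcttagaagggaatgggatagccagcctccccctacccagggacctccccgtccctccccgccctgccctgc
Kcnn4 stood at 23.8, 20.8, 22.9, 17.9 and 15.1 CPM in replicates 1 to 5 of the knockout IFNγ group and at 14.1, 11.5, 11.6, 5.40 and 8.01 CPM in the knockout vehicle group. The wild-type libraries gave 53.9, 48.2, 55.9, 44.6 and 56.3 CPM with IFNγ and 26.0, 22.2, 29.1, 22.7 and 22.9 CPM with vehicle. The 2 treatments did not overlap in either line, nor did the lines under either treatment. Group means were 20.1 ± 3.60 CPM in knockout IFNγ, 10.1 ± 3.43 CPM in knockout vehicle, 51.8 ± 5.16 CPM in wild-type IFNγ and 24.6 ± 2.92 CPM in wild-type vehicle cells. Wild-type IFNγ was thus the highest group and knockout vehicle the lowest, and the groups between them overlapped, with 15.1 to 23.8 CPM in knockout IFNγ and 22.2 to 29.1 CPM in wild-type vehicle libraries.

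IFNγ raised Kcnn4 by 1.02 ± 0.16 log2 in knockout cells (2.02-fold, edgeR adjusted p = 5.1e-05) and by 1.08 ± 0.16 log2 in wild-type cells (2.11-fold, edgeR adjusted p = 8.8e-06). Knockout cells held less Kcnn4 than wild-type cells with IFNγ (−1.38 ± 0.16 log2, 2.60-fold lower, edgeR adjusted p = 1.3e-06) and with vehicle (−1.32 ± 0.16 log2, 2.50-fold lower, edgeR adjusted p = 3.2e-06). Each of these 4 calls held in all 30 alternative settings and had the same sign in all 3 batches. For each, the exact two-sided permutation test over all splits of 5 against 5 gave p = 0.0079, the smallest it can give. The IFNγ changes by batch were 0.86, 1.71 and 0.91 log2 in knockout and 1.04, 0.97 and 1.29 log2 in wild-type cells. The response in knockout minus that in wild-type cells was −0.06 ± 0.22 log2 (edgeR adjusted p = 0.91), with a 95% interval from −0.54 to 0.42 log2.

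**Figure D3:**
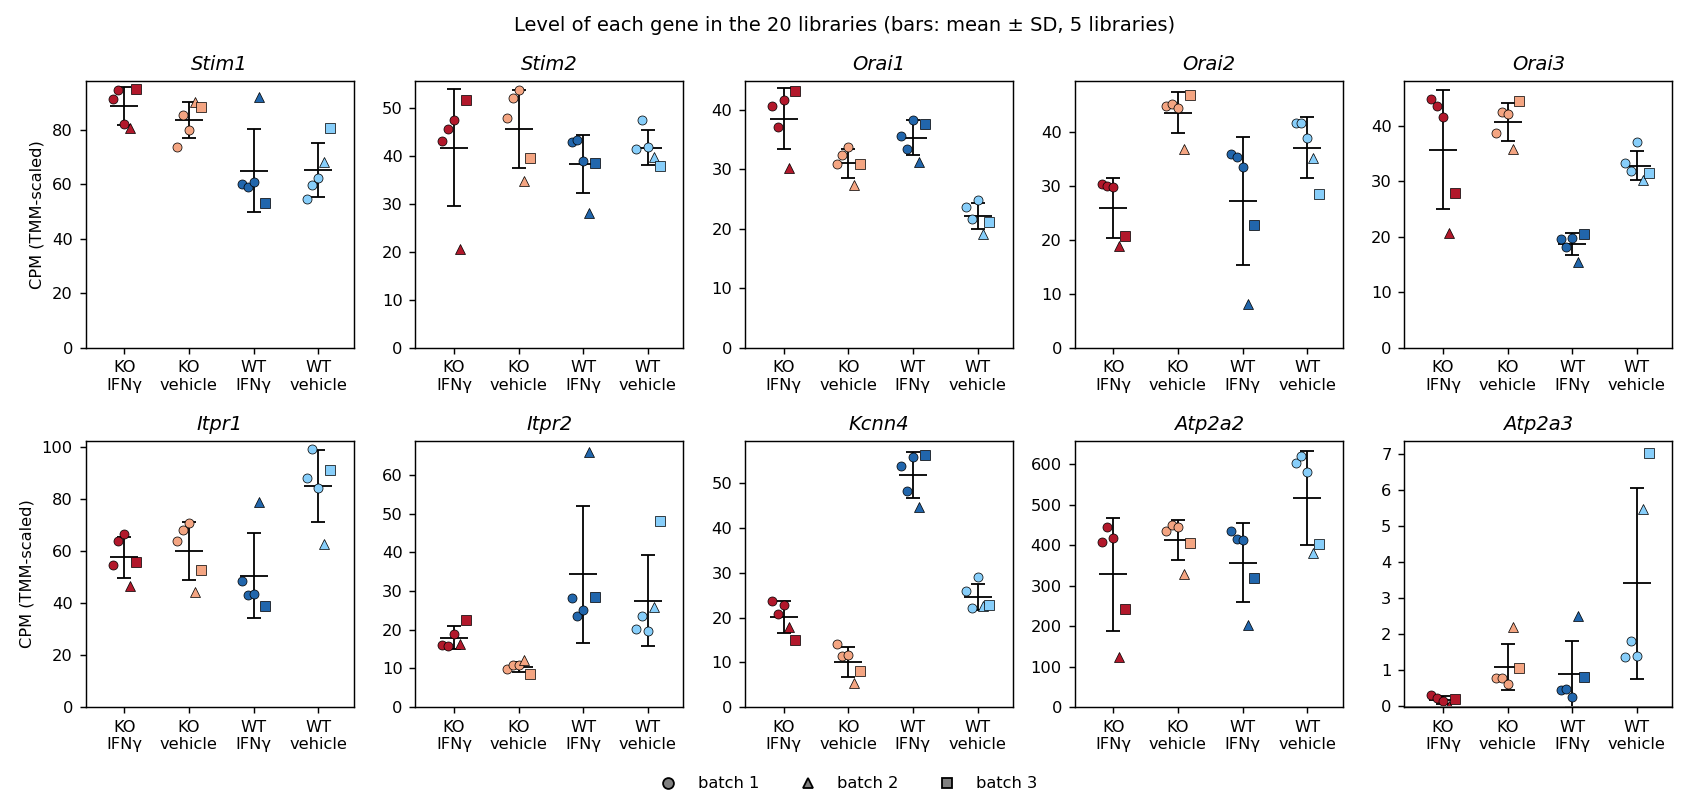
Level (y axis, CPM on TMM-scaled library sizes) of each of the 10 genes in the 20 libraries, by group (x axis), with symbols for batches 1, 2 and 3 and bars for the mean ± SD of 5 libraries. Kcnn4 separates all 4 groups except knockout IFNγ and wild-type vehicle, and the triangle of batch 2 lies far from its group for Itpr2 and Stim1 in wild-type cells with IFNγ, at 66.0 and 92.0 CPM.

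SERCA2, the product of Atp2a2, is the housekeeping pump that refills the ER, and SERCA3, the product of Atp2a3, is a pump of lower calcium affinity known from blood cells. Atp2a2 was the most abundant of the 10 genes per kb of exon, at 54.0 ± 22.9, 67.9 ± 8.20, 58.7 ± 16 and 85.0 ± 19.1 CPM per kb in knockout IFNγ, knockout vehicle, wild-type IFNγ and wild-type vehicle cells. It stood at 409, 445, 419, 125 and 242 CPM with IFNγ in knockout cells, against 436, 449, 444, 329 and 406 CPM with vehicle. Wild-type libraries held 436, 415, 412, 202 and 320 CPM with IFNγ, against 602, 621, 580, 381 and 402 CPM with vehicle. Within batch 1 the wild-type treatments were apart and the knockout ones overlapped, and in batches 2 and 3 IFNγ libraries were low in both lines. Atp2a2 fell by 0.45 ± 0.16 log2 in knockout cells (1.36-fold lower, edgeR adjusted p = 0.025) and by 0.56 ± 0.15 log2 in wild-type cells (1.48-fold lower, edgeR adjusted p = 0.0041). By batch the change was −0.06, −1.39 and −0.74 log2 in knockout and −0.51, −0.92 and −0.33 log2 in wild-type cells. The wild-type call was lost with no batch term (−0.53 log2, edgeR adjusted p = 0.12) and in batches 2 and 3 alone (−0.63 log2, edgeR adjusted p = 0.099), and the exact two-sided permutation test, which leaves batch out, gave p = 0.079. The knockout call was lost with no batch term (−0.33 log2, edgeR adjusted p = 0.38), in batch 1 alone (−0.04 log2, edgeR adjusted p = 0.47), and without batch 2 (−0.23 log2, edgeR adjusted p = 0.10). It was also lost when replicate 4 or 5 of the knockout vehicle group (−0.34 and −0.39 log2) or replicate 4 or 5 of the knockout IFNγ group (−0.28 and −0.40 log2) was left out. The IFNγ libraries of batches 2 and 3 are those with TMM factors of 0.635 to 0.892, and the part of this in the change was not tested.

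Atp2a3 was near the limit of detection in these cells, with 0 to 125 reads per library and 0.891% or less of the summed Atp2a2 and Atp2a3 level per kb in each group on average. It stood at 0.310, 0.211, 0.128, 0 and 0.174 CPM with IFNγ in knockout cells, against 0.758, 0.763, 0.603, 2.18 and 1.05 CPM with vehicle. The library with 0 reads allows up to 0.170 CPM at 3 counts, for counting error only. The wild-type values were 0.426, 0.459, 0.232, 2.49 and 0.804 CPM with IFNγ, against 1.35, 1.80, 1.38, 5.47 and 7.01 CPM with vehicle. The knockout IFNγ libraries were lower than all vehicle libraries of the same line, and in wild-type cells batch 2 with IFNγ overlapped with vehicle. Atp2a3 fell by 2.26 ± 0.58 log2 with IFNγ in knockout cells (edgeR adjusted p = 0.0040) and fell by 2.03 ± 0.51 log2 in wild-type cells (edgeR adjusted p = 0.0021). It was lower in knockout than in wild-type cells with IFNγ (−1.76 ± 0.60 log2, edgeR adjusted p = 0.024) and with vehicle (−1.53 ± 0.50 log2, edgeR adjusted p = 0.027). The IFNγ difference between lines was lost without replicate 4 of the wild-type IFNγ group (−1.38 log2, edgeR adjusted p = 0.073) or replicate 5 of the knockout IFNγ group (−1.57 log2, edgeR adjusted p = 0.061). It was also lost in batch 1 alone (−0.72 log2, edgeR adjusted p = 0.23), without batch 2 (−1.01 log2, edgeR adjusted p = 0.099) and with plain library totals (−1.55 log2, edgeR adjusted p = 0.053). By batch it was −0.60, −4.86 and −1.76 log2, and the value of batch 2 rests on the library with 0 reads. The vehicle one was lost without replicate 5 of the wild-type vehicle group (−1.15 log2, edgeR adjusted p = 0.12) or replicate 3 or 5 of the knockout vehicle group (−1.50 and −1.36 log2), with no batch term (−1.66 log2, edgeR adjusted p = 0.091) and in batches 2 and 3 alone (−2.03 log2, edgeR adjusted p = 0.18).

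IFNγ and genotype moved a large part of all genes in these cells, so the counts of calls are set beside the share called over all genes. With IFNγ 6 of the 10 genes changed in knockout cells, 3 higher and 3 lower, where 43.2% of the 13755 genes were called, 21.4% higher and 21.8% lower. In wild-type cells 7 changed, 2 higher and 5 lower, where 58.9% of all genes were called, 29% higher and 29.9% lower. Between knockout and wild-type cells 5 differed with IFNγ, 2 higher and 3 lower in knockout cells, against 39.0% of all genes, 20% higher and 19.0% lower. With vehicle 6 differed, 2 higher and 4 lower, against 27.3% of all genes, 12.5% higher and 14.8% lower. The groups did not overlap for 4 of the 10 with IFNγ in knockout cells (27.6% of all genes), 3 with IFNγ in wild-type cells (36.2%), 3 between the lines with IFNγ (15.1%) and 3 between the lines with vehicle (24.9%). The median change of the 10 genes was −0.11, −0.34, 0.04 and −0.09 log2 in these 4 comparisons, beside −0.02, 0.01, 0.01 and 0.03 log2 over all genes. Comparisons of the same cells share libraries and so are not independent of each other. For the difference of IFNγ responses none of the 10 passed in edgeR, where 6.50% of all genes did, 3.64% higher and 2.86% lower. There 3 of the 10, Orai1, Orai3 and Itpr1, had an unadjusted p under 0.05, DESeq2 called 2, limma-voom called 1 and batch 1 alone called 6. Over all genes DESeq2 called 1480 of 13755, limma-voom 1034 of 13755 and batch 1 alone 7096 of 13833.

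The IFNγ change depended on the batch for 4 of the 10 genes, Atp2a2, Stim2, Orai2 and Itpr1, in a test of the batch by IFNγ terms pooled over genotype, which called 35.5% of all genes. Relative to batch 1 the change of Atp2a2 was −0.85 log2 in batch 2 and −0.26 log2 in batch 3 (edgeR adjusted p = 0.0076). For Orai2 these terms were −1.02 and −0.38 log2 (edgeR adjusted p = 0.028), and for Stim2 −0.50 and 0.34 log2 (edgeR adjusted p = 0.032). For Itpr1 they were 0.85 and −0.0029 log2 (edgeR adjusted p = 0.041). Orai1, Kcnn4, Itpr2, Orai3, Stim1 and Atp2a3 did not pass this test. Batches 2 and 3 each held 1 library per group, so within them a value has no replicate. Fitted on these batches alone, calls were lost for Stim1 (0.27 log2, edgeR adjusted p = 0.57), Orai3 (0.41 log2, edgeR adjusted p = 0.37) and Itpr2 (−1.27 log2, edgeR adjusted p = 0.071) between the lines with IFNγ and for Orai1 (0.53 log2, edgeR adjusted p = 0.33) with vehicle. Of the IFNγ changes, Itpr2 in knockout cells (0.91 log2, edgeR adjusted p = 0.13) and Itpr1 (−0.38 log2, edgeR adjusted p = 0.41) and Atp2a3 (−2.04 log2, edgeR adjusted p = 0.074) in wild-type cells were lost there. The IFNγ calls of Orai1 in knockout cells and of Atp2a2 in wild-type cells were lost there too. So were the calls of Stim1, Itpr1 and Atp2a3 between the lines with vehicle.

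**Figure D4:**
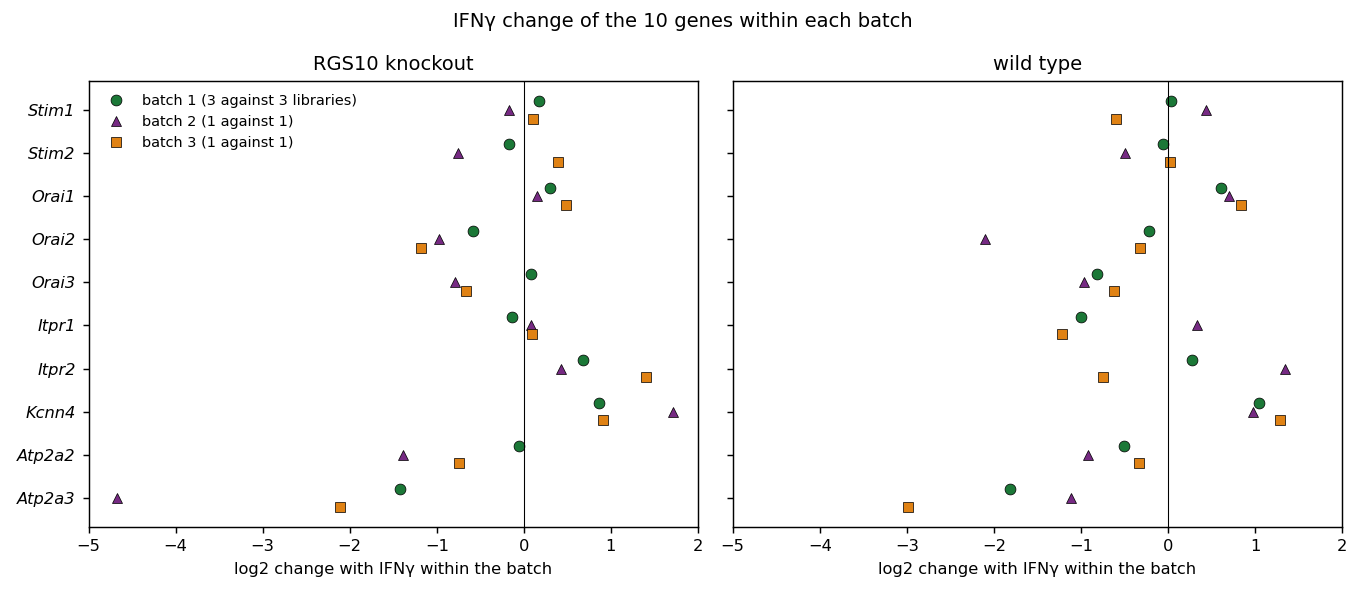
Log2 change with IFNγ (x axis) of the 10 genes (rows) within batch 1 (3 against 3 libraries), batch 2 and batch 3 (1 against 1), in knockout cells (left) and wild-type cells (right). Kcnn4 and Orai1 lie to the right of 0 in all 3 batches of both lines, while Orai3 in knockout cells has batch 1 at 0.08 and batches 2 and 3 at −0.79 and −0.67. The batch 2 value of Atp2a3 in knockout cells rests on a library with 0 reads and depends on the prior count.

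Other genes of the pathway were counted from a list of 100 tested genes in 9 roles. With IFNγ 29 of them rose and 23 fell in knockout cells, and 28 rose and 36 fell in wild-type cells, against the background shares above of 43.2% and 58.9% called. Among regulators of STIM and ORAI, the STIM inhibitor Saraf rose with IFNγ in both lines, to 163 ± 35.1 CPM in knockout cells, against 107 ± 6.31 CPM with vehicle, and to 265 ± 90.3 CPM in wild-type cells, against 118 ± 11.0 CPM with vehicle (SD, n = 5; edgeR adjusted p = 0.0026 and 2.2e-06). Saraf was lower in knockout than in wild-type cells with IFNγ (−0.67 ± 0.14 log2, edgeR adjusted p = 0.001). Esyt1, a tether between ER and plasma membrane, rose 2.08-fold with IFNγ in knockout cells (edgeR adjusted p = 8.4e-08), and its response was larger there than in wild-type cells by 0.51 ± 0.14 log2 (edgeR adjusted p = 0.030). The palmitoyltransferase Zdhhc21 was higher in knockout than in wild-type cells, 1.80-fold with IFNγ and 2.56-fold with vehicle (edgeR adjusted p = 4.4e-06 and 1.4e-08). Erp44, an ER protein known to inhibit the type 1 IP3 receptor, was 1.57-fold higher in knockout than in wild-type cells with IFNγ and 1.59-fold higher with vehicle (edgeR adjusted p = 8.5e-04 and 0.001). Among partners of the release channels, Lrmp was 1.96-fold higher and Itprip 2.32-fold lower in knockout than in wild-type cells with IFNγ (edgeR adjusted p = 1.3e-06 and 4.5e-06).

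Of 14 other plasma membrane channels tested, 8 were lower and none higher in knockout than in wild-type cells with IFNγ, and with vehicle 3 were lower and none higher. Over all genes 19.0% were lower with IFNγ and 14.8% with vehicle. The list median was −0.73 log2 with IFNγ and −0.24 log2 with vehicle, beside 0.01 and 0.03 log2 over all genes. The ATP-gated channel P2rx4 averaged 124 ± 38.8 CPM in knockout cells with IFNγ and 239 ± 94.2 CPM in wild-type cells with IFNγ (−0.93 ± 0.15 log2, edgeR adjusted p = 7.5e-05). P2rx7 was 2.08-fold lower in knockout than in wild-type cells with IFNγ and 1.68-fold lower with vehicle (edgeR adjusted p = 3.3e-04 and 0.0071). The oxidant-gated channel Trpm2 was 2.10-fold lower in knockout than in wild-type cells with vehicle (edgeR adjusted p = 0.0041). The cation channel Trpv2 rose with IFNγ in both lines, 1.80-fold in knockout and 2.20-fold in wild-type cells (edgeR adjusted p = 6.4e-06 and 6.9e-08).

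Upstream of the receptors, Plcg1 and Plcg2 encode phospholipases that make IP3. Plcg2 fell with IFNγ 1.47-fold in knockout and 1.94-fold in wild-type cells (edgeR adjusted p = 0.010 and 5.4e-05). Plcg1 averaged 29.9 ± 4.26 CPM in knockout cells with IFNγ and 14.7 ± 5.07 CPM in wild-type cells with IFNγ, and its response differed between the lines by 1.09 ± 0.29 log2 (edgeR adjusted p = 0.027). Downstream, of 12 calcineurin and NFAT genes 4 fell and 2 rose with IFNγ in knockout cells, and 8 fell and 2 rose in wild-type cells, where 43.2% of all genes were called in knockout and 58.9% in wild-type cells. Nfatc3 fell 1.51-fold in knockout and 1.77-fold in wild-type cells (edgeR adjusted p = 3.9e-04 and 5.5e-06). The calmodulin-dependent kinase Camk1 fell 3.72-fold in knockout and 3.95-fold in wild-type cells (edgeR adjusted p = 3.4e-07 and 7.6e-08). Among exit routes, the plasma membrane pump Atp2b1 was 1.53-fold lower with IFNγ in both lines (edgeR adjusted p = 0.0033 in knockout and 0.002 in wild-type cells). In mitochondria, the sodium-calcium exchanger Slc8b1 rose 2.24-fold in knockout and 3.64-fold in wild-type cells with IFNγ (edgeR adjusted p = 1.7e-05 and 2.5e-08). Its libraries spread widely with IFNγ, at 92.7 ± 61.5 CPM in knockout and 141 ± 73.1 CPM in wild-type cells (SD, n = 5). With vehicle they averaged 36.3 ± 7.06 and 35.9 ± 8.27 CPM. Mcub, a subunit that damps the uniporter, rose 2.16-fold in knockout and 2.08-fold in wild-type cells (edgeR adjusted p = 1.4e-04 and 1.1e-04). Of the 100 genes, 9 passed the test on the difference of responses, 6 higher and 3 lower, beside 6.50% of all genes. The ER calcium-binding protein Rcn2 was among them, with a response higher in knockout cells by 0.79 ± 0.13 log2 (edgeR adjusted p = 0.0015).

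Over the 20 libraries, with batch means removed, the genes whose log2 CPM followed each member most closely were listed as a description. Kcnn4 was most like Il1a and Phc2 (r = 0.98 for both), Orai3 like Was and Eif4e2 (0.97), Itpr2 like Grk5 (0.97) and Map4 (0.95), and Orai1 like Ubap1 (0.96) and Tollip (0.95). Atp2a2 was most like Rab32 (0.97), Orai2 like Irf2bp1 (0.95), Stim1 like Gpr34 (0.92), Itpr1 like Mapre2 (0.92) and Stim2 like Zfp148 (0.88). Among the 10 genes themselves the largest coefficients were 0.85 for Atp2a2 with Atp2a3, −0.84 for Orai3 with Kcnn4 and 0.83 for Itpr2 with Kcnn4. The libraries share groups, batches and depth, so these values describe the 20 libraries and carry no test.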

How the data were processed

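The data are raw read counts per gene, as the authors deposited them, for 20 libraries of poly(A)-selected RNA. Every column of the table matched a labelled sample. Per the submitters' processing notes, FastQC, Trim Galore, STAR and DESeq2 were used with the mouse build GRCm39, and versions are not given. How reads were counted, with which strand setting and which annotation, is not given in the sources here, so reads of paralogs or of overlapping genes may have been assigned either way. GENCODE release 21 (GRCm38) gave symbols for 51948 of 56941 identifiers (91.2%) and the gene lengths.

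Counts were scaled by TMM and filtered with filterByExpr in edgeR 4.0.16 (R 4.3.3), which kept 13755 genes. Robust quasi-likelihood models had group and batch as terms (14 residual degrees of freedom). A gene was called where its p, adjusted by Benjamini-Hochberg over all genes tested in that comparison, was under 0.05. Words such as rose and fell are used of calls. Levels are CPM on TMM-scaled library sizes, log2 values by batch use a prior count of 2, and intervals are at 95%. Single genes were also compared by an exact two-sided permutation test. The fits were also run on simulated counts with changes planted in the wild-type IFNγ libraries only and no batch effect. Such counts cannot show how the fits behave where the IFNγ change depends on batch. Replicates differed by more than counting noise, with a chi-squared per degree of freedom of at least 3.69, so none was a copy of another, which does not show that they came from separate cultures. A floor covers counting error only.

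The genes named are the 10 described, Rgs10 and, from each role of the pathway list, up to 2 called genes each way with the smallest p. Those most like a member were ranked by Pearson's r. Members and lists were chosen with earlier results of these data known. Alternatives were RLE size factors, plain library totals, no filter beyond 1 read, DESeq2 1.42.0, limma-voom (limma 3.58.1), no batch term, the replicate number as a block, batch 1 alone, batches 2 and 3 alone, each library left out in turn and, chosen after seeing the data, batch 2 left out.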

Additional observations from a re-analysis of the deposited data

Results flagged for a closer look

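In 8 of the 40 sets of 5 libraries (10 genes in 4 groups) the highest or lowest library stood apart from the rest by Dixon's criterion, which chance meets in about 1 of 20 sets. Replicate 4, the library of batch 2, was that library in 7 of the 8. In knockout cells with IFNγ this was Stim2 at 20.5 CPM, and in knockout cells with vehicle Orai2 at 36.9 CPM and Atp2a3 at 2.18 CPM. In wild-type cells with IFNγ it was Stim1 at 92.0 CPM, Itpr1 at 79.1 CPM, Itpr2 at 66.0 CPM and Atp2a3 at 2.49 CPM. The remaining case was Itpr2 at 48.0 CPM in replicate 5 of wild-type cells with vehicle.

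The IFNγ change differed between batches for 4 genes in the test of the batch by IFNγ terms, which called 35.5% of all genes. Relative to batch 1, it was −0.85 log2 in batch 2 and −0.26 log2 in batch 3 for Atp2a2, −0.50 and 0.34 log2 for Stim2, −1.02 and −0.38 log2 for Orai2, and 0.85 and −0.0029 log2 for Itpr1.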

How the results depend on the processing

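Of the 24 calls among 50 tests of the 10 genes, 9 held in all 30 alternative settings, and no called value turned its sign. Leaving out batch 2 was chosen after seeing the data, and the cause of the changes below was not tested. IFNγ in knockout cells called 5937 genes, against 3897 with no batch term. IFNγ in wild-type cells called 8101 genes and 7 members, against 5101 and 4 in batches 2 and 3 alone. Knockout against wild type with IFNγ called 5363 genes and 5 members, against 9580 genes in batch 1 alone and 1920 genes and 2 members in batches 2 and 3 alone. With vehicle it called 3753 genes and 6 members, against 2318 and 3 with no batch term, 8072 genes in batch 1 alone, and 847 and 2 in batches 2 and 3 alone. The difference of responses called 894 genes, against 537 with plain totals, 1480 in DESeq2, 138 with no batch term, 7096 in batch 1 alone, 121 in batches 2 and 3 alone and 1906 without batch 2. Of the members it called 0, against 1 with plain totals, without the filter and in limma-voom, 2 in DESeq2, 6 in batch 1 alone and 3 without batch 2. Over all genes it called 1290 without the filter and 1034 in limma-voom. With the replicate number as a block, the difference of responses called 530 genes and the vehicle comparison 4 members, losing Stim1 and Itpr1. Same-numbered libraries of batch 1 did not deviate together (correlations −0.042 to 0.04), so no pairing by number was seen there. The deviations are from means of 3 libraries and include counting noise, so this cannot exclude a pairing. Replicates 4 and 5 are batches 2 and 3. Leaving out 1 library gave 542 to 1448 genes and 0 to 1 members for the difference, 3 to 7 members with vehicle between lines, and 3684 to 6413 genes and 1 to 6 members for batch by IFNγ (4886 and 4). The lowest member count there came without wild-type vehicle replicate 4 and the highest without wild-type IFNγ replicate 4. With plain totals the median change of all genes was −0.16 log2 for IFNγ in knockout cells (−0.02 with TMM), −0.21 in wild-type cells (0.01) and 0.13 between lines with IFNγ (0.01). The percent of calls that were higher was then 38.5 (49.5 with TMM), 36.7 (49.2) and 62.3 (51.4). Changes that were not called turned sign as follows. In batches 2 and 3 alone, IFNγ in knockout cells gave Stim1 −0.04, Itpr1 0.06 and Rgs10 0.06 log2, knockout against wild type gave Orai2 0.41 and Itpr1 −0.22 with IFNγ and Stim2 −0.08 with vehicle, and the difference gave Stim2 0.11, Orai2 0.05, Kcnn4 0.17 and Atp2a2 −0.44. In batch 1 alone, Orai3 with IFNγ in knockout cells was 0.10, Stim1 with IFNγ in wild-type cells 0.01 (also in DESeq2 and with RLE), Atp2a2 between lines with IFNγ 0.04 and the difference of Atp2a3 0.37. Plain totals gave Stim1 −0.05 in knockout cells, Orai2 0.06 between lines with IFNγ, and differences of 0.08 for Stim2 and 0.07 for Kcnn4. No filter gave Orai2 0.01 and the Stim2 difference 0.00. Without batch 2, Itpr2 in wild-type cells was −0.02, and the differences of Stim2 and Atp2a3 were 0.02 and 0.57. Leaving out 1 library moved IFNγ changes of Stim1 (−0.15 to 0.09) and Itpr2 (−0.01 to 0.55) in wild-type and Itpr1 (−0.16 to 0.01) in knockout cells, line differences with IFNγ of Stim2 (−0.03 to 0.24) and Orai2 (−0.24 to 0.07), and response differences of Stim2 (−0.16 to 0.13), Kcnn4 (−0.21 to 0.05) and Atp2a3 (−0.76 to 0.32).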
